A study of Mus musculus with 2 samples.

Results

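Suffix chains are transcript models whose introns match the 3′ end of a longer transcript and whose 5′ exons are missing, so that the model starts late. In left cerebral cortex of 6-month-old mice, 1586 suffix chains in 887 genes had at least 2 exons and at least 10 reads in either of 2 long-read libraries. They came from 48830 spliced suffix chains, and from 155902 spliced models of every class, seen in either library. A model was a member when its deposited class was an incomplete splice match of the suffix kind, and models of the 2 libraries were joined when chromosome, strand and every intron agreed. The rule was met by 1070 models in replicate 1 and by 1320 models in replicate 2. Members were thus chosen by class, exon number and read count, so the read levels of the members below are a description and no test of abundance.

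A transcript starts at its promoter and loses its introns by splicing, and a long read can show the whole chain of exons that remains. Copying into complementary DNA runs from the 3′ end toward the 5′ end. A suffix chain can thus stand for a copy of a full transcript that ended before the 5′ end. It can also stand for RNA made from a promoter inside the gene, and these need not be the only origins. The intron chain alone does not tell them apart, and which origin holds for a given chain was not tested.

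Both libraries were made from total RNA of left cerebral cortex of mouse strain B6NCrl, adult, aged 6 months, with no treatment or mutation given. The labels call them biological replicates 1 and 2 of 1 group and give both the same donor record, so differences between them may be technical. P-values between them set a difference against counting error only and measure no spread between replicates. Replicate 1 held 1306424 reads and replicate 2 held 1304133 reads. Marker lists of cortical cell types were read in both libraries, with 5275 reads in replicate 1 and 4895 in replicate 2 for oligodendrocytes, 1218 and 924 for excitatory neurons, 289 and 315 for microglia and 215 and 253 for endothelial cells. Choroid plexus markers had 75 reads in replicate 1 and 47 reads in replicate 2, and 4 Y-linked genes had 0 reads in both. A label field calls the tissue male, but the sex fields of the labels conflict with each other. Suffix models with at least 2 exons took 6.27% of all reads in replicate 1 and 7.21% in replicate 2, with 95% Clopper-Pearson intervals of 6.23% to 6.31% and 7.17% to 7.26%. Intervals cover counting error only. Models with a single read made up 61.0% of the spliced suffix models in replicate 1 and 58.6% in replicate 2.

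The suffix chains closest to a known start were set beside that start's sequence. In 17 chains of 17 genes the model began within 50 bases of a RefSeq transcript start, and over 50% of the reads with the chain's first intron had no intron further 5′, in both libraries. The windows of the 5 with most reads are shown because in these genes the exons further 5′ were rarely read. Each window spans 250 bases before and 50 bases from the RefSeq start (RefSeq, GRCm38.p6), 5′ to 3′ on the gene's strand, with the transcribed bases in capitals.
Atp5f1: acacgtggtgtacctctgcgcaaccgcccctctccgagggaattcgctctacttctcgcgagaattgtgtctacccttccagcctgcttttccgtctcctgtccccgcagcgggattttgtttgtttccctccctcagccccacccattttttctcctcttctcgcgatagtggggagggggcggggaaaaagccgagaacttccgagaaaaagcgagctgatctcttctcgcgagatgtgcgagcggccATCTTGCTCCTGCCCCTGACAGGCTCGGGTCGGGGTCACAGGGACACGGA
Phb2: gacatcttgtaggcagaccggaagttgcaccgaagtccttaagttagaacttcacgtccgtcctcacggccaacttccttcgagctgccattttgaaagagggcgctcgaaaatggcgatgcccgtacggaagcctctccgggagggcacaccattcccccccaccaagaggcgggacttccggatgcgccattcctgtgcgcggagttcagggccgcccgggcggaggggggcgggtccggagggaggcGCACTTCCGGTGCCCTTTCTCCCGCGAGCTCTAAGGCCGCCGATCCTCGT
Prkar1a: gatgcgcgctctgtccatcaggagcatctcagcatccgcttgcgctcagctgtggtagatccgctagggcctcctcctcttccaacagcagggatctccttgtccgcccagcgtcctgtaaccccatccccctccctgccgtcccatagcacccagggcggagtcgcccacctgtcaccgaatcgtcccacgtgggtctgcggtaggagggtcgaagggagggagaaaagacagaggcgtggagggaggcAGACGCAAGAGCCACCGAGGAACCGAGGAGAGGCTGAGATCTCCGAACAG
S100a13: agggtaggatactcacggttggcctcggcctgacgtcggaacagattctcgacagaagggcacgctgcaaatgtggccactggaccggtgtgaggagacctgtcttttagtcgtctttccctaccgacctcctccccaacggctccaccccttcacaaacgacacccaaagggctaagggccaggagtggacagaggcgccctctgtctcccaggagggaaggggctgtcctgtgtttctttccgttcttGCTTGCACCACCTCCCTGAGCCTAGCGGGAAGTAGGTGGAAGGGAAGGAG
Ctsa: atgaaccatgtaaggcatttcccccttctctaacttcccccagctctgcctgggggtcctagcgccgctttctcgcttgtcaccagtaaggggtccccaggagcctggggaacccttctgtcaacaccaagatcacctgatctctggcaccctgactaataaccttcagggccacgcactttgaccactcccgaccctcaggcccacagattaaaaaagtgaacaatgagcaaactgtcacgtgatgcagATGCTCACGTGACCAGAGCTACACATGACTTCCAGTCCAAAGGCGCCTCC
The windows lie at chr3:105959214-105959513 on the minus strand for Atp5f1 (listed by RefSeq as Atp5pb), chr6:124712039-124712338 on the plus strand for Phb2, chr11:109650292-109650591 on the plus strand for Prkar1a, chr3:90514185-90514484 on the plus strand for S100a13 and chr2:164833523-164833822 on the plus strand for Ctsa. The suffix model started 1 base before the RefSeq start in Atp5f1 (a difference of -1), at the RefSeq start itself in S100a13, 33 bases after it in Prkar1a, 34 bases after it in Ctsa and 47 bases after it in Phb2. The deposited starts in Atp5f1, Phb2 and Ctsa were annotated transcript starts. Such distances lie between annotated positions and do not show where reads ended. The motif TATAAA, searched on both strands, was in none of the 5 windows and in 13.6% of the 32851 RefSeq windows of the same length. CG dinucleotides numbered 8 in Ctsa, 14 in S100a13, 20 in Prkar1a, 23 in Atp5f1 and 29 in Phb2, against a median of 7 over all windows.

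Most members were low in reads and were seen in both libraries. Of the 1586 chains, 1580 had a read in both libraries and 824 had at least 10 reads in both. Another 258 reached 10 reads in replicate 1 only and 504 in replicate 2 only. Members had a median of 12 reads in replicate 1 and 14 reads in replicate 2, with 807 reads in replicate 1 and 942 reads in replicate 2 at the top. They held 30898 reads in replicate 1 and 35324 reads in replicate 2. Read numbers in the 2 libraries lay within 2-fold of each other for 1163 chains (73.3%), and their Spearman correlation across chains was 0.55, a description over chains that share both libraries. Just inside the limit of 10 reads stood a chain of 2900011O08Rik with 8 reads in replicate 1 and 10 in replicate 2, and a chain of the citrate-cleaving enzyme gene Acly with 10 and 6 reads. Just outside stood a chain of 1110004F10Rik with 4 reads in replicate 1 and 9 in replicate 2, and a chain of AI413582 with 2 and 9 reads. In all, 224 chains stood just inside the limit and 274 just outside.

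**Figure D1:**
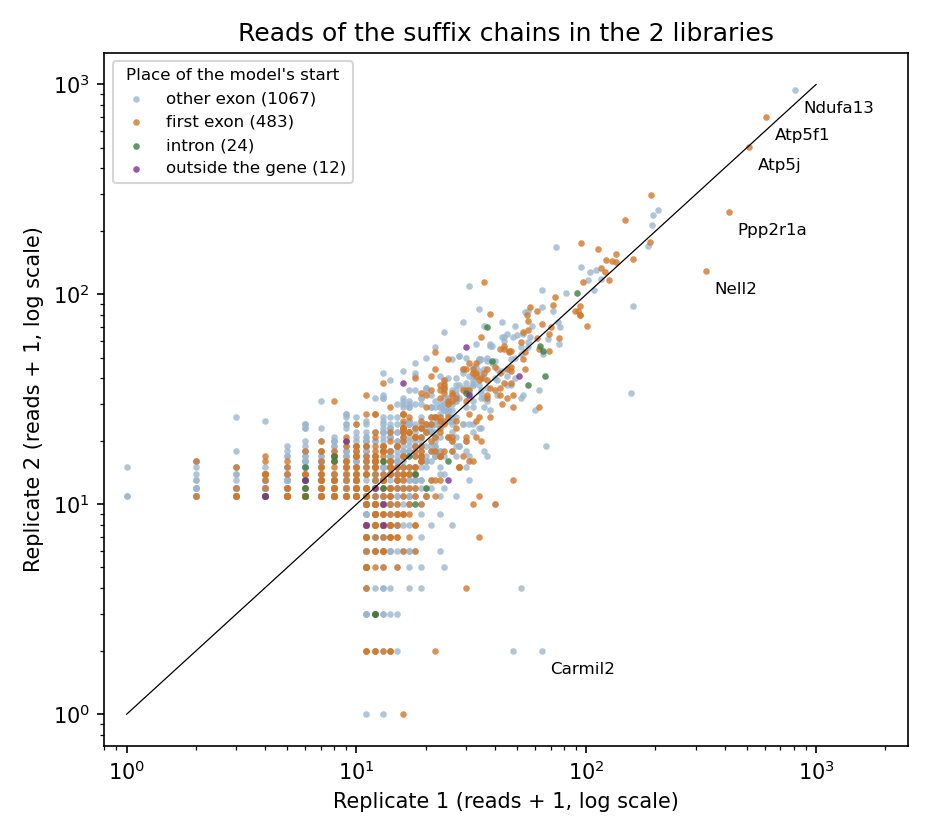
Reads of each of the 1586 suffix chains in replicate 1 (horizontal axis) and replicate 2 (vertical axis), each plus 1 on a log scale, coloured by the place of the model's start; the line marks equal reads. Most chains lie near the line, Ndufa13 is the highest at 807 and 942 reads, and a chain of Carmil2 stands apart at 63 reads in replicate 1 and 1 read in replicate 2.

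The deposited 5′ ends of the chains were mostly positions of the annotation rather than scattered read ends. A start lay exactly on an annotated transcript start of the gene in 435 chains, on the start of another annotated exon in 947, on another annotated exon boundary in 124 and on no boundary in 80 (5.04%). The starts of the 2 libraries were identical in 1258 of the 1500 boundary chains seen in both, and in 9 of the 80 others, where the median gap was 83.5 bases. A model's start is therefore read here as an exon, not as the base where a read ended. Set against annotated first exons of the same gene, 483 starts (30.5%) fell inside one. A further 1067 (67.3%) fell in an exon of the gene but in none of its annotated first exons, 24 in an intron and 12 outside the gene. First-exon starts made up 28.1% when only starts within 50 bases of an annotated transcript start were counted, and 11.2% when the first exons were limited to transcripts with a read in either library.

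Suffix chains most often lacked a single exon. An annotated parent, that is a longer transcript ending in the same introns, was found for 1536 chains, and the parent of most reads was used to count exons. A single exon was missing in 474 chains (30.9%), 2 exons in 212 and 10 or more in 230. The median was 3 missing exons (quartiles 1 and 7), 573 missing bases and 27.9% of the parent's length. The extreme was Huwe1, a very large ubiquitin ligase gene, where a chain of 6 exons with 10 reads in replicate 1 and 5 in replicate 2 lacked 77 of the 83 exons of Huwe1-201. The chain's 3′ end lay within 50 bases of the parent's end in 1129 chains (73.5%).

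The missing exons usually included the one that holds the start codon. Among 1511 chains with a coding parent, that exon was missing in 1279 (84.6%). Of the chains that lacked 1 exon, 46.1% still held it. Of those that lacked 2 exons, 7.77% did, and no chain that lacked 10 or more did. Chains that kept the exon had 7850 reads in replicate 1 and 8074 reads in replicate 2, against 21543 and 25744 reads for chains without it.

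**Figure D2:**
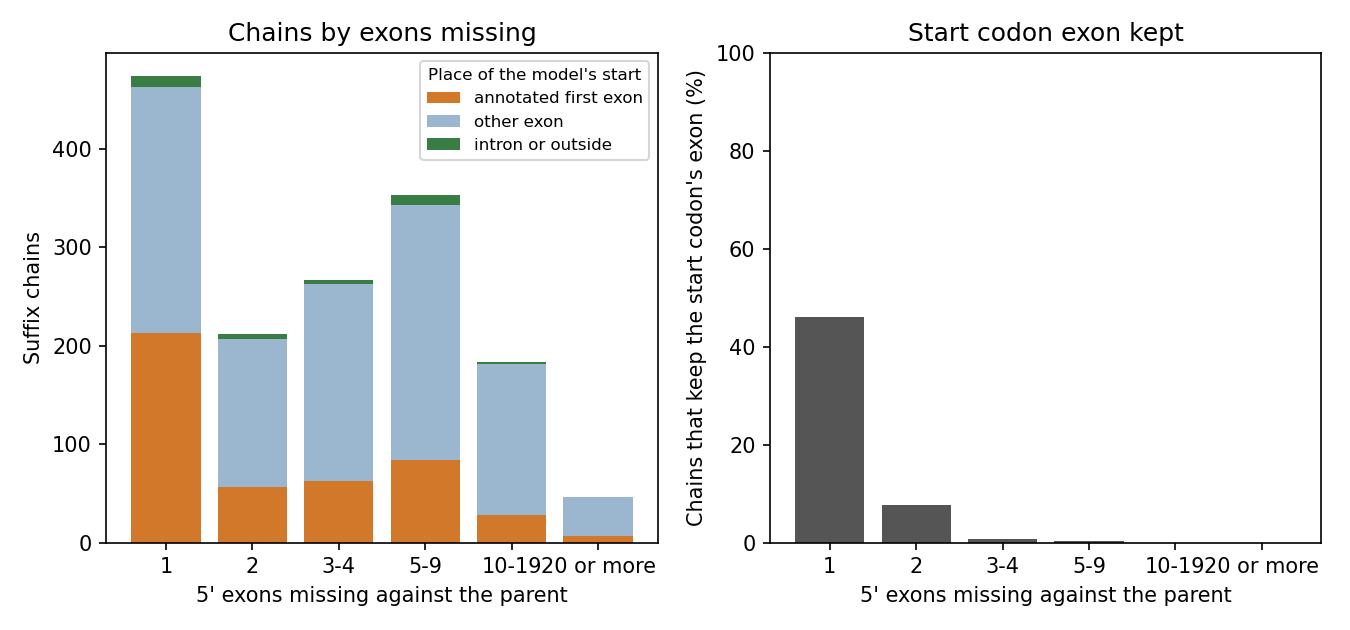
Left, number of suffix chains (bars, stacked by the place of the model's start) by how many 5′ exons were missing against the annotated parent; right, percent of chains with a coding parent that keep the exon holding the start codon. A single missing exon is the most common class, with 474 chains, and 46.1% of these keep the start codon's exon.

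The 3 most read suffix chains belonged to genes of mitochondrial energy production and each lacked 1 exon. Ndufa13, an accessory subunit of respiratory complex I, had a 4-exon chain on chromosome 8 (69894180 to 69901732, minus strand, mm10) with 807 reads in replicate 1 and 942 reads in replicate 2, or 670 ± 74.0 CPM (reads scaled to the library total, SD, n = 2). The model was classed as suffix in replicate 1 and as both prefix and suffix in replicate 2. Its 5-exon parent Ndufa13-201 had 0 reads in both libraries, which allows up to 3 reads in each. Atp5f1, subunit b of the stalk of ATP synthase, had a 7-exon chain on chromosome 3 (105942698 to 105959264, minus strand) with 605 reads in replicate 1 and 701 reads in replicate 2, or 500 ± 52.6 CPM (SD, n = 2). Its 8-exon parent Atp5f1-201 also had 0 reads in both. In both genes the suffix chain thus stood almost alone, and in both it kept the exon with the start codon.

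Atp5j, coupling factor 6 of ATP synthase, differed in that both forms were read. Its 4-exon chain on chromosome 16 had 511 reads in replicate 1 and 503 reads in replicate 2, while its annotated parents had 274 reads in replicate 1 and 262 in replicate 2. Of all reads with the chain's first intron, 63.1% in replicate 1 and 64.5% in replicate 2 had no intron further 5′. A shorter chain of Atp5b, the catalytic beta subunit, was of the opposite kind. It held the last 2 exons, with 190 reads in replicate 1 and 296 in replicate 2, below parents with 1427 and 1399 reads.

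Chains that lacked 1 exon were also high in genes of other functions. Psmc2, an ATPase of the proteasome cap, had 192 reads in replicate 1 and 214 in replicate 2 on a 12-exon chain, against 0 and 1 reads for its 13-exon parent. Clcn4, a chloride and proton exchanger, had 134 and 142 reads against 4 and 3 reads of its parent. Prkar1a, a regulatory subunit of protein kinase A, had 115 and 133 reads against 4 and 4. S100a13, a calcium-binding protein, had 124 and 116 reads against 0 and 0. These chains all kept the exon with the start codon, and in each the libraries lay close together.

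Other chains of many reads lacked the start codon's exon and lay in genes read far more often in full. The chaperone gene Hspa8 had 7 member chains, 1 for each number of exons from 2 to 8, of which the 5-exon chain led with 205 reads in replicate 1 and 252 in replicate 2. Its parents had 5402 and 5276 reads. A 2-exon chain of Aldoa, a glycolytic aldolase, had 185 and 169 reads beside parents with 3119 and 3535 reads. A 6-exon chain of Ckb, the brain creatine kinase, had 146 and 224 reads beside 8244 and 6686. These chains were a small share of their genes in both libraries. The 15 most read members together held 14.2% of all member reads in replicate 1 and 12.8% in replicate 2.

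Gpm6a, a neuronal membrane glycoprotein, and Ppp2r1a, the scaffold subunit of protein phosphatase 2A, lay between these cases. The 6-exon chain of Gpm6a had 194 reads in replicate 1 and 239 in replicate 2 beside parents with 615 and 718 reads. The 11-exon chain of Ppp2r1a, which lacked 4 exons, had 419 and 245 reads beside 523 and 526.

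Over all members, the chain had more reads than its annotated parents together in 190 chains of 156 genes in both libraries. In 97 chains no parent had a read in either library. At the other end, 823 chains (53.6%) had parents with at least 10 times their reads.

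A further measure was the share of reads that begin at a chain's first intron. It counts the same reads of chains and parents, so it is no separate evidence for the kinds above. For each first intron, reads of all spliced models that hold it were split by whether the model has another intron further 5′. The share without one had a median of 3.62% in replicate 1 and 5.48% in replicate 2 over the members, with upper quartiles of 13.6% and 18.8%. It ranked the introns alike in the 2 libraries (Spearman correlation 0.88 over 1566 introns, a description). The share was under 10% in both libraries for 969 chains (61.1%) and over 50% in both for 150 chains of 138 genes. For 30 chains no read in either library reached further 5′.

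The chains with high starting shares differed in what lay at their start, as a description with no test. A RefSeq start lay in the chain's first exon or within 300 bases of it in 36 of the 117 chains over 50% that could be matched to RefSeq (30.8%), against 33 of 727 under 10% (4.54%). The exon with the start codon was kept in 40.5% of the first kind and 9.43% of the second. The 2 kinds also differed in missing exons, with a median of 2 in the first and 3 in the second. Since keeping that exon went with few missing exons, the contrast is not separate from their number. The model began at an annotated transcript start in 44.7% of the first kind and 22.2% of the second. RefSeq starts were matched for 1203 of the 1586 members (75.9%).

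Named chains with high shares included genes of lysosomes, membranes and RNA binding. Ctsa, the lysosomal protective protein, had 68 reads in replicate 1 and 64 in replicate 2 on its 15-exon chain, and 100% and 95.8% of reads with its first intron began there. Tspan12, a tetraspanin, had 55 and 74 reads with starting shares of 100% and 98.8%. Hnrnpf, an RNA-binding protein of the splicing machinery, had 42 and 29 reads with 100% in both. Ethe1, a mitochondrial sulfur dioxygenase, had 33 and 47 reads with 100% in both. Their parents had 0 to 2 reads in either library, so in these genes the annotated form with the extra 5′ exon was hardly seen. These 4 genes were chosen after their values were seen.

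Several genes carried nested series of suffix chains, with a step at most of their exons. A total of 591 genes had 1 member, 238 had 2 to 4 and 58 had 5 or more. In App, the amyloid precursor gene, all 14 steps had reads in both libraries, 4 to 38 each in replicate 1 and 6 to 48 in replicate 2, below a full chain of 629 and 292 reads. In Eef2, a translation elongation factor, all 12 steps had reads in both, 11 to 36 in replicate 1 and 7 to 50 in replicate 2, below 869 and 560 full reads. No step of either gene exceeded 50 reads in either library. Aplp1, a relative of App, and Gnas, a G protein subunit, had 12 and 10 member chains. Their steps reached at most 29 reads. Their suffix reads on the most read transcript were alike in the libraries, with 165 in replicate 1 and 187 in replicate 2 for Aplp1 and 165 and 173 for Gnas. Their full reads were not, with 1210 and 187 for Aplp1 and 1721 and 305 for Gnas.

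Nell2, which encodes a secreted neuronal glycoprotein, showed a single high step instead. The 20-exon chain, which lacks the first exon of a 21-exon transcript, had 331 reads in replicate 1 and 128 in replicate 2. The full chain had 54 and 52 reads and the median step 7 and 8 reads. The high step was the same in both libraries, while its level differed between them.

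**Figure D3:**
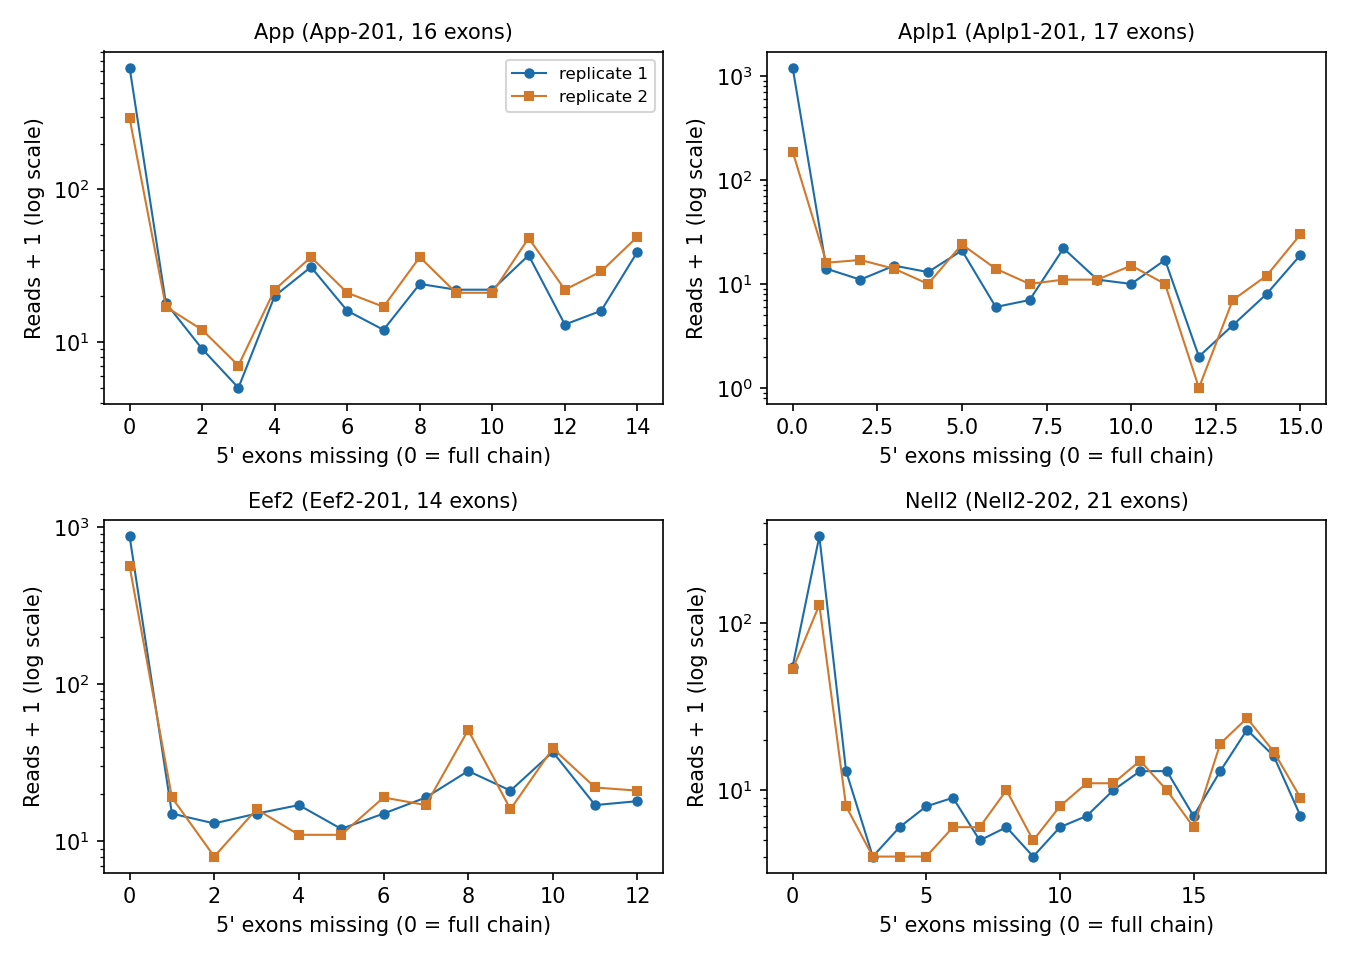
Reads plus 1 (log scale) of chains that lack 0, 1, 2 and more 5′ exons of the most read transcript of App, Aplp1, Eef2 and Nell2, in replicate 1 (circles) and replicate 2 (squares). The steps of App, Aplp1 and Eef2 stay at or below 50 reads, and Nell2 peaks at 1 missing exon with 331 and 128 reads.

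In 10 chains of 7 genes the missing exon lay beyond an annotated intron of over 200 kb. In 7 of these chains over 95% of the reads of the next intron began after it in both libraries. They include 4 chains of Cadm1, which share that next intron and so count it 4 times. Cadm1, a synaptic adhesion molecule, had 4 such chains behind an intron of 257465 bases, the highest with 103 reads in replicate 1 and 127 in replicate 2. Of the reads with the next intron, 264 began there and 4 reached further in replicate 1, and 269 began there and 4 reached further in replicate 2. Kcnip4, a potassium channel partner, lacked the exon beyond an intron of 1014880 bases in all 67 reads of replicate 1 and all 54 of replicate 2. Cdh13, a cadherin, did so in 40 and 50 reads. The others were Ntm, Pde1a, Luzp2 and Phactr1, a regulator of actin, in which the starting share was lowest, at 40.3% in replicate 1 and 59.3% in replicate 2.

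The median starting share of these 10 chains was 98.5% in both libraries, against 3.17% and 4.83% for 836 chains behind introns of up to 1 kb and 5.29% and 8.01% for 98 chains behind introns of 10 to 50 kb. The Cadm1 chains share a first intron, whose value of 98.5% in both libraries sets the median of the 10 chains. Over the whole annotation, 11 of 524 introns longer than 200 kb had a read in either library (2.10%), against 196 of 472 introns of 150 to 200 kb (41.5%). The length of the intron moved with the starting share. Whether the read alignment limited intron length is not given in the sources used here. The part of intron length in the result was not tested.

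**Figure D4:**
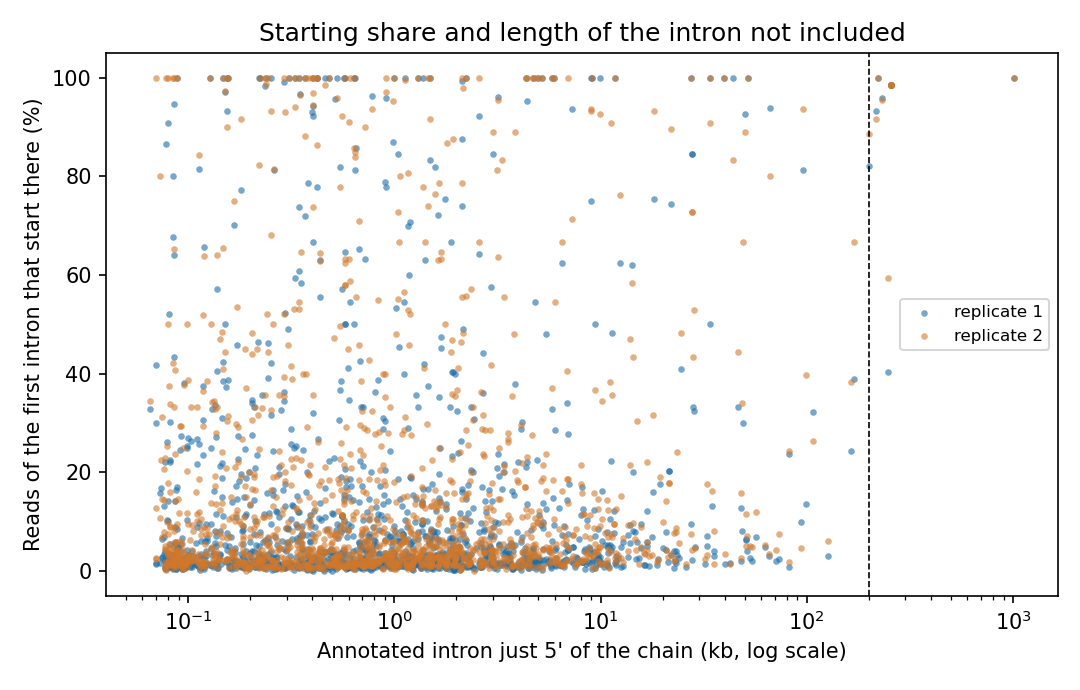
Starting share of each member's first intron (percent of its reads with no intron further 5′, vertical axis) against the length of the annotated intron just 5′ of the chain (kb, log scale), in replicate 1 and replicate 2; the dashed line marks 200 kb. Most chains lie below 10%, and the 10 chains right of the line lie at 40.3% to 100% in replicate 1 and 59.3% to 100% in replicate 2.

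For 50 chains no annotated transcript was a parent. Phb2, a prohibitin of the inner mitochondrial membrane, was the largest, with 188 reads in replicate 1 and 177 in replicate 2. Mef2c, a neuronal transcription factor, had 88 and 82 reads, and Atl1, an endoplasmic reticulum GTPase, had 71 and 88. The Phb2 chain was classed as suffix in replicate 2 but as a new combination of known splice sites in replicate 1, and the Mef2c chain the other way round. In all, 30 chains seen in both libraries had another class in one of them.

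Gene labels also differed between the libraries for 20 chains. A 6-exon chain with 50 reads in replicate 1 and 40 in replicate 2 was listed under Parp6 in replicate 1 and under Pkm, a pyruvate kinase, in replicate 2. Its annotated parents belong to Pkm. Among the 24 chains that start in an intron, Eno1, a glycolytic enolase, had a 6-exon chain with 64 reads in replicate 1 and 53 in replicate 2, and Manbal a 2-exon chain with 65 and 40. Chains by the same rule at the other end, which lack 3′ exons, numbered 1191 in 828 genes, and 151 genes had both kinds.

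Suffix chains were found in each of 18 lists of cortical genes, at shares that differed between lists. The suffix share of a gene was its suffix reads over its suffix and known spliced reads, measured in the 4318 genes that had 20 or more of these reads in both libraries. Its median over all these genes was 6.79% in replicate 1 and 9.09% in replicate 2. Calls below are genes whose share differed between replicates 1 and 2 in Fisher's exact test, which called 4.01% of all genes lower in replicate 1 and 0.116% higher. The rule used the suffix reads, so nothing is read from these counts. For each list, genes with a chain are counted out of all its genes. Median shares and calls cover only the genes measured, given as tested.

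The list of astrocyte and secreted glial proteins had 1745 member reads in replicate 1 and 2274 in replicate 2, on 52 chains in 15 of 21 tested genes. Its median share was 7.87% and 16.8%, and no gene was called. Its highest chain was that of Gpm6a, which the list holds although it is the neuronal membrane glycoprotein named above. Next came Ndrg2, an astrocyte protein, with 120 and 127 reads on its 14-exon chain. The glycolysis list had 56 chains in 14 of 16 genes (15 tested), with a median share of 12.8% and 15.2% and Pkm called lower in replicate 1. Chaperones had 45 chains in 13 of 27 genes (26 tested), with 15.4% and 16.9%, and Hsp90ab1 and Dnaja2 were called lower.

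The lists of oxidative phosphorylation and ribosomal protein genes had low median shares. The oxidative phosphorylation list does not hold Ndufa13, Atp5f1 and Atp5j, the genes of the 3 most read chains, so its values leave them out. It had 49 chains in 17 of 25 tested genes, a median share of 3.65% in replicate 1 and 5.56% in replicate 2, and 1 gene called lower in replicate 1. Cytosolic ribosomal protein genes had 52 chains in 23 of 30 genes and shares of 4.95% and 4.84%, with none called. Rpl6, of the large ribosomal subunit, led them with 121 and 145 reads on its 6-exon chain. Mitochondrial carriers and citric acid cycle enzymes had 48 chains in 15 of 23 genes (22 tested), shares of 11.1% and 14%, and none called. Myelin and oligodendrocyte genes had 11 chains in 4 of 16 genes (13 tested), shares of 3.28% and 6.71%, and 1 gene called lower.

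Translation factors stood higher, with 36 chains in 10 of 18 genes (16 tested) and medians of 24.3% in replicate 1 and 32.6% in replicate 2. Eef1a1, an elongation factor, led them with 111 and 164 reads, and Eef2, Eif4g2 and Eif3b were called lower in replicate 1. RNA binding and splicing genes had 13 chains in 10 of 32 genes (20 tested), with 20.0% and 44.6%, and Hnrnpu and Matr3 called lower. Glutamate and GABA receptor genes had only 5 chains in 4 of 18 genes (11 tested), at 37.3% and 48.9%, with Gabbr1 called lower. The highest was that of Gabrb2, a GABA receptor subunit, with 13 and 21 reads.

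Calcium and calmodulin signalling had the most calls. It had 34 chains in 13 of 21 genes (19 tested), medians of 17.1% in replicate 1 and 31.4% in replicate 2, and 5 genes called lower in replicate 1, namely Camk2b, Ppp3ca, Ppp3cb, Prkcb and Itpka. Ion and proton pumps had 48 chains in 15 of 20 genes (17 tested), with 14.7% and 25.6%, with Atp6v0d1 and Atp6v1b2 among the genes called lower. Microtubule genes had 34 chains in 21 of 39 genes (34 tested), with 10.2% and 19.6%, and Map7d1, Tuba4a and Kif1b called lower. Synaptic vesicle genes had 41 chains in 14 of 37 genes (28 tested), with 10.2% and 15.3%, and Syn2, Sv2a and Ap2a1 called lower.

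Actin and spectrin genes had 19 chains in 9 of 29 genes (21 tested), with 22.8% in replicate 1 and 21.8% in replicate 2 and Arpc2 called lower in replicate 1. Their leader was Actg1, the cytoplasmic gamma actin, with 129 and 143 reads on a 3-exon chain. Amyloid precursor and lysosome genes had 52 chains in 12 of 20 genes (18 tested), with 8% and 10.5%, and App, Aplp1 and Lamp1 called lower. Ubiquitin and proteasome genes had 21 chains in 11 of 25 genes (24 tested), with 12.6% and 13.4%, Vcp called lower and Psma7 called higher. The list of 14-3-3 proteins and kinases had 17 chains in 6 of 22 genes (17 tested), with 7.27% and 10.9%, and Csnk1e and Csnk2b called lower.

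Suffix shares were higher in genes with longer transcripts. The median was 2.01% in replicate 1 and 2.33% in replicate 2 for 582 genes whose most read transcript had up to 1000 bases. It was 14.8% and 19.9% for 558 genes above 4000 bases. Across the 4318 genes, the Spearman correlation of the suffix share was 0.36 and 0.39 with transcript length and 0.65 and 0.66 with the number of exons, as a description over genes of the same libraries. The genes with a member that could be measured numbered 789, with a median share of 14.9% in replicate 1 and 20.1% in replicate 2.

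In some genes of very long transcripts no known spliced transcript was read. Dync1h1, the heavy chain of cytoplasmic dynein, had 73 suffix reads in replicate 1 and 83 in replicate 2 and 0 known spliced reads, which allows up to 3. Its member chain, with 15 and 10 reads, held the last 8 of 77 exons. Itpr1, the inositol trisphosphate receptor, had 64 suffix reads in replicate 1 and 73 in replicate 2 against 0 known reads. In these genes the suffix share was 100% in both libraries.

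Reads of single chains differed between the libraries in both directions. The share of a chain's reads in replicate 1 was set against that of the library totals by an exact binomial test, two-sided, over 15133 spliced chains with at least 10 reads in the sum. A chain was called at a Benjamini-Hochberg adjusted p under 0.05 and a 2-fold difference. It compares the libraries, not conditions. Higher in replicate 1 were 32 member chains (2.02%), against 7.51% of all chains tested, and lower in replicate 1 were 61 (3.85%), against 1.47% of all chains. Since the rule used the same reads, nothing is read from these counts about the members.

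Nell2 was among the chains called higher, at a log2 ratio of 1.36 (exact binomial test, adjusted p = 8.74e-20). Tspan7, a tetraspanin of neurons, had 155 reads in replicate 1 and 33 in replicate 2, a log2 ratio of 2.21 (exact test, adjusted p = 3.66e-18). Carmil2 had 63 reads in replicate 1 and 1 in replicate 2, and a further chain 47 and 1, so these chains rested on replicate 1. Chains lower in replicate 1 were led by Ttc3, a ubiquitin ligase gene, with 30 and 109 reads at a log2 ratio of -1.85 (exact test, adjusted p = 2.99e-10). The chaperone Hsp90aa1 had 35 and 114 reads at -1.69 (exact test, adjusted p = 1.68e-09), and Cpe, a peptide-processing enzyme, had 73 and 168 reads at -1.20 (exact test, adjusted p = 2.35e-08). Chains of these 6 genes were chosen after their values were seen.

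The suffix share of a gene, in contrast, was mostly lower in replicate 1. Fisher's exact test, two-sided and adjusted over the 4318 genes, called a gene at an adjusted p under 0.05 and a difference of at least 10 percentage points. Among the 789 genes with a member, 77 were called lower in replicate 1 (9.76%), against 4.01% of all genes tested, and 4 were called higher (0.507%), against 0.116% of all genes. The rule used the suffix reads, so these shares are a description. Among all member genes, the share was lower in replicate 1 in 573 (72.6%) and higher in 182. Among all 4318 genes tested it was lower in 2656 (61.5%) and higher in 1197.

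In most of the 77 genes called lower, suffix reads were close and known spliced reads were not, with known reads over 2-fold higher in replicate 1 in 54. Ppp2ca, the catalytic subunit of protein phosphatase 2A, had 55 suffix reads in replicate 1 and 56 in replicate 2 but 315 and 18 known spliced reads, giving shares of 14.9% and 75.7% (Fisher's exact test, adjusted p = 4.79e-22). Ctbp1, a transcriptional corepressor, had 34 and 36 suffix reads and 161 and 7 known reads, with shares of 17.4% and 83.7% (Fisher's exact test, adjusted p = 3.57e-14). Abhd17a, a depalmitoylase, had 46 and 45 suffix reads and 111 and 6 known reads (Fisher's exact test, adjusted p = 1.13e-11). Rasgef1c, an exchange factor for Ras-like proteins, had 10 and 23 suffix reads and 26 and 0 known reads (Fisher's exact test, adjusted p = 6.83e-07). Itpka, a kinase of inositol trisphosphate, and Prkcb, a protein kinase C, showed the same, with 391 and 16 known reads for Itpka and 424 and 34 for Prkcb. Over the 77 genes, suffix reads summed to 4734 in replicate 1 and 6739 in replicate 2, and known spliced reads to 24075 and 8464. The median log2 ratio of replicate 1 over replicate 2 was -0.28 for suffix reads and 1.92 for known reads, against -0.23 and 0.03 in the 708 member genes that were not called. The suffix sums over the 77 genes include Atp5j, at 16 reads in replicate 1 and 526 in replicate 2. Its most read chain was classed as suffix in replicate 2 only. With 1 class and gene for a chain in both libraries, as described below, Atp5j had 527 and 526 suffix reads.

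Base composition at the 5′ end moved with this difference. The share of G and C in the first 200 bases of the most read known transcript had a median of 74.0% in the 77 genes, against 62.5% in 674 member genes that were not called and had a value. Among 70 member genes above 75%, 33 were called lower in replicate 1 (47.1%), against 75 of all 342 genes tested above 75% (21.9%). The member genes there had a median log2 ratio of 1.00 for known reads and -0.15 for suffix reads. Among 213 member genes between 50% and 60%, 8 were called (3.76%), against 18 of all 1212 genes in that range (1.49%), and the medians of the member genes were 0.02 and -0.27. The part of base composition in the result was not tested.

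**Figure D5:**
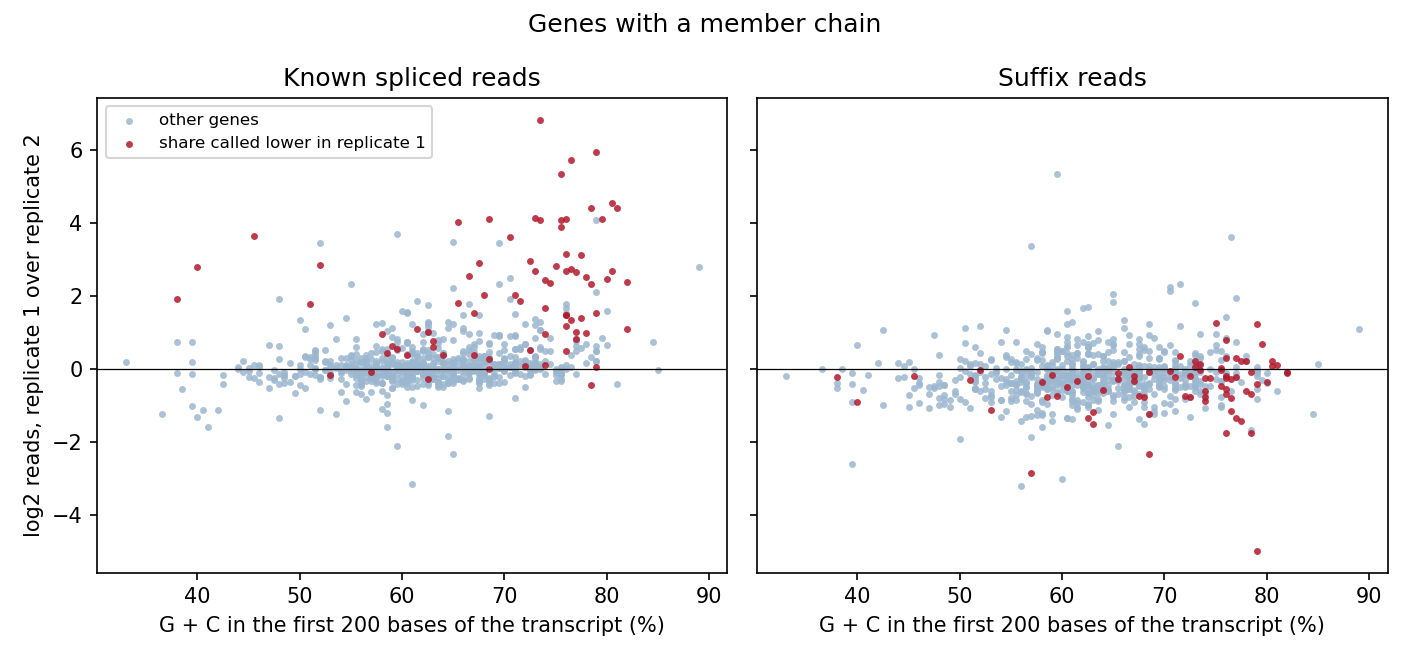
log2 ratio of replicate 1 over replicate 2 for known spliced reads (left) and suffix reads (right) of genes with a member, against the percent of G and C in the first 200 bases of the gene's most read known transcript; red points are the genes whose suffix share was called lower in replicate 1. Known reads rise above 0 at high G and C content, with a median log2 ratio of 1.00 above 75%, and suffix reads stay near -0.15 there.

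Some other calls went with a class or gene label that differed between the libraries. Atp5j was called lower in replicate 1 at 4.91% and 63.8%, and its chain of 511 and 503 reads was classed as suffix in replicate 2 only. With 1 class and 1 gene for a chain in both libraries, a setting added after seeing the data, its shares were 63.0% and 63.8%. Mef2c, called higher at 42.2% and 23.7%, then had 42.2% and 39.4%. Adrm1, a ubiquitin receptor of the proteasome called higher at 16.0% and 1.63%, then had 16.0% and 20.4%. Pkm and Ttc3, called lower in replicate 1, then missed the limit of 10 points, at differences of -7.12 and -9.31 points. Psma7, a proteasome subunit, stayed called, at 35.6% and 20.2% as deposited (Fisher's exact test, adjusted p = 1.01e-05). Paip2, a regulator of translation, also did, at 22.3% and 11.3% (Fisher's exact test, adjusted p = 0.00579). In all, 166 of the 178 called genes were called in both analyses.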

How the data were processed

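RNA of mouse left cerebral cortex was sequenced as long reads in 2 libraries. Per the file headers, the deposited tables hold counts, whole reads per transcript model with no normalization, and other values, the exon number and the length of models. The annotations deposited beside them hold GENCODE M21 features on mm10 and models built from each library by TALON, which sorts long reads by how they match known transcripts. Neither the aligner, the TALON version nor how a 5′ end was set is given in the sources used here. Reads and a genome sequence were not used here.

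Classes were kept as deposited. Models were read with Python 3.11.15 and matched between libraries by chromosome, strand and intron chain, and parents were GENCODE M21 transcripts ending in the same introns. Tests used scipy 1.17.1, the exact binomial test with 0.5 counts added for ratios, and Fisher's exact test. Both were checked on simulated data. edgeR 4.0.16 and DESeq2 1.42.0 gave only normalization factors for alternatives, since 1 group of 2 libraries allows no model of replicate spread. A count of 0 allowed up to 3 reads, or 2.30 CPM, in either library. RefSeq starts and sequences were matched by Entrez gene and symbol. Named chains were the 15 of most reads, the 5 of most reads in each start class, the 8 genes of highest suffix share with at least 50 reads in each library, the 5 called member genes of largest difference each way, and the 2 leading members of each list. The text does not give them all and says where others were named, and some genes that the rule names are not reported here. The members, the gene lists and the measure of base composition were chosen with earlier results of these data known.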

Additional observations from a re-analysis of the deposited data

How the results depend on the processing

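The number of suffix chains followed the read limit, with 4718 chains at 5 reads and 539 at 20 reads, against 1586 at 10. It was 804 when 10 reads and the suffix class were asked of both libraries, and 2390 when models were matched by their deposited ID, which differs between libraries. Without one library it was 1070 to 1320. The share of first-exon starts was 26.5% at 5 reads, 36.5% at 20 reads, 38.6% as a share of reads, 11.2% with first exons of read transcripts only and 30.2% to 34.3% without one library. The alternative with 1 class and gene for a chain was chosen after seeing the data. The median of missing exons was 2 at 20 reads and 2 with the parent that gave the fewest, and 3 without either library. Genes with a called difference in suffix share numbered 178, against 96 with at least 50 reads in each library and 69 with member chains only. The suffix share of Adrm1, 14.4 points higher in replicate 1, reversed to -4.35 points with 1 class and gene for a chain in both libraries. Chains called between the libraries numbered 1360, against 906 with no filter on low counts. The median suffix share of genes with a member was 18.3% as a mean of the libraries, 14% over all reads of the gene, 10.1% with member chains only and 14.9% to 20.1% without one library. No paired analysis was possible because both libraries form a single group. A chain of 10 reads has wide counting error, so single low chains do not rank reliably.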

Other observations

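Some suffix chains belonged to genes best known from other tissues, where the annotated parent had at most 5 reads in the cortex. They were named after their values were seen. Myh7, the slow myosin heavy chain of heart and muscle, had a 10-exon chain with 37 reads in replicate 1 and 56 in replicate 2, which lacked 31 of the 41 exons of its parent. No read of its first intron reached further 5′ in replicate 1, against 44 that began there, and 1 did in replicate 2, against 64. Acta1, the actin of skeletal muscle, had a 4-exon chain with 34 reads in both libraries, and 97.1% and 97.2% of the reads of its first intron began there. The parents of both chains had 0 reads in either library.

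Late starts also led in named chains of Krt12, Krt10, Slc5a5 and Tymp. Krt12, a keratin of the cornea, had a 4-exon chain with 18 reads in replicate 1 and 31 in replicate 2 and starting shares of 94.7% and 100%. Shorter Krt12 chains had lower shares, at 24.4% and 33.3% for 2 exons and 40.6% and 33.3% for 3 exons. Krt10, a keratin of skin, had a 2-exon chain with 26 and 31 reads and shares of 81.2% and 81.6%. Slc5a5, the iodide transporter of thyroid, had a 4-exon chain with 32 and 44 reads and shares of 86.5% and 100%. Tymp, a thymidine phosphorylase, had a 4-exon chain with 61 and 34 reads and 100% in both. Each of these chains was read in both libraries, and no cause was tested.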
